A study of Mus musculus with 32 samples.

Results

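The comparison described here is that of the thymus of CD30L transgenic mice with the thymus of wild type mice. Its members are the 8 arrays labelled as thymus, 4 of each genotype and 1 per mouse, out of 32 arrays in the series. All mice were female, 12 weeks old and of the strain C57BL/6. The transgenic arrays carry CD2-CD30L in their names, and the labels describe a constant overexpression of CD30L that is specific to T cells. The wild type mice were littermates without the transgene. The same 8 mice also gave spleen, mesenteric lymph node and peripheral lymph node, 24 arrays that are used below only to show where thymus differed. The labels do not say whether the transgenic mice stem from 1 founder, and neither the copy number nor the place of insertion is given in the sources used here.

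CD30L is a membrane protein of the tumour necrosis factor (TNF) family, encoded by Tnfsf8, and binds CD30, a receptor encoded by Tnfrsf8. Receptors of this family recruit TRAF adaptor proteins and activate NF-kB transcription factors, among them the alternative branch of RelB and p100/p52. In the thymus, immature T cells called thymocytes pass through a double positive stage with both CD4 and CD8 in the cortex. Survivors of selection mature in the medulla, where CD30 and its ligand have been studied in the deletion of self-reactive cells, and where a few B cells, dendritic cells and regulatory T cells also reside. The comparison asks what a T cell-borne ligand changes in that tissue.

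The defining genes of thymocytes were strongly detected. The deposited signal of Rag1, which cuts antigen receptor genes for recombination, lay between 5256 and 7478 in the 8 thymus arrays and at most at 589 in the 24 others. The signal of Ptcra, which pairs with the beta chain in immature thymocytes, lay between 410 and 739 and at most at 27.4 elsewhere. The trimmed mean signal ran from 145 to 252 in thymus, and correlations between thymus arrays lay between 0.957 and 0.982. The 3′ to 5′ signal ratio of Actb, which grows as RNA degrades, was 2.25 and 2.23 in transgenic mice 1 and 2 but 1.34 and 1.43 in transgenic mice 3 and 4. It was 1.78, 1.68, 1.40 and 1.34 in wild type mice 1 to 4, so mice 1 and 2 had higher ratios than mice 3 and 4 in both genotypes. The first principal component was also positive in mice 1 and 2 and negative in mice 3 and 4 of both. With that division as a block in the limma fit, 2954 probe sets had an unadjusted p under 0.05, against 1962 without it, and 1 passed the adjusted threshold in either fit. Values below are log2(signal + 16) after quantile normalization of the 8 arrays. A difference is transgenic minus wild type on that scale, ± its standard error, with 4 mice per genotype.

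Tnfsf8 itself showed no difference that the data could resolve. Its log2 values were 5.39, 6.21, 6.40 and 6.28 in transgenic mice 1 to 4 and 6.34, 6.05, 6.10 and 6.20 in wild type mice 1 to 4. The lowest value was that of transgenic mouse 1, and the genotypes overlapped. The difference was -0.10 ± 0.212 (limma, adjusted p = 0.932), and it turned to 0.12 without transgenic mouse 1. Whether the transgene contains the stretch that the probe set reads is not given in the labels, so this value checks neither the labels nor the transgene. Tnfrsf8, the receptor gene, had 6.09, 6.03, 6.34 and 6.47 in transgenic and 6.30, 6.16, 6.17 and 6.15 in wild type mice, a difference of 0.04 ± 0.117 (limma, adjusted p = 0.954), which was -0.04 without transgenic mouse 4. No gene of the list of the CD30 pair and TRAF adaptors had an unadjusted p under 0.05 among 11 tested, where 7.26% of all probe sets did. A list of this length can give none at that share. The median difference of the 11 genes was -0.07, or 0.03 on the values as deposited. The lowest of them was Traf4, an adaptor of this family, at -0.27 ± 0.127.

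Over the whole array, 1 of 27022 probe sets tested rose past an adjusted p of 0.05 by limma, which is 0.0037% of them, and none fell. At an unadjusted p under 0.05, 1962 probe sets (7.26%) differed, of which 1074 (3.97%) were higher and 888 (3.29%) lower in transgenic thymus. An even spread of p would give 1351.1. All 4 transgenic arrays lay above all 4 wild type arrays for 2.54% of the probe sets, and below them for 2.07%. The median difference over all tested probe sets was 0.00, the figure against which the gene groups below are read.

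The probe set that rose, 1447238_at, has no gene symbol in the annotation used here. Its values were 6.64, 6.85, 6.18 and 6.44 in transgenic and 4.62, 4.55, 4.44 and 4.53 in wild type thymus. Every transgenic array lay well above every wild type array, and the wild type arrays were nearly level. The difference was 1.99 ± 0.142, or 3.98-fold, with a limma adjusted p of 0.00918. Its signal was low, and a filter at the 60th percentile removed it. The size followed the constant added before log2: 3.25 with 1 and 0.99 with 64, both past the threshold. The main filter used the mean over all 8 arrays, and the group means were 6.53 in transgenic and 4.54 in wild type mice. The probe set thus passed that filter only through its transgenic arrays. With no filter its limma adjusted p was 0.0354. The call was lost without transgenic mouse 1 (limma adjusted p = 0.0807), transgenic mouse 4 (0.0699), wild type mouse 1 (0.0623) or wild type mouse 3 (0.0830), within a range of 1.4e-06 to 0.516 over all alternatives. Under the block that divides mice 1 and 2 from the others it was 0.00562. The sign was the same in all of them.

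The next 19 probe sets by p did not pass the threshold, the closest at a limma adjusted p of 0.0747, and their p was what chose them. Together with 1447238_at, 18 of these 20 were higher in transgenic thymus. Hyal2, which encodes a hyaluronidase anchored in the cell membrane, had 6.99, 7.13, 6.90 and 6.74 in transgenic and 5.40, 5.59, 5.37 and 5.93 in wild type mice. Its difference was 1.37 ± 0.145, or 2.59-fold (limma, adjusted p = 0.0747), and the genotypes lay apart. Dusp4, a phosphatase that switches off MAP kinases, stood at 0.85 ± 0.128, with 7.98, 8.19, 8.39 and 8.19 against 7.46, 7.28, 7.09 and 7.51. Lpxn, encoding leupaxin, an adaptor of adhesion sites, stood at 0.69 ± 0.0948, with 9.65, 9.83, 9.51 and 9.76 against 9.02, 8.99, 8.93 and 9.04. The genotypes lay apart in both genes.

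Gh, the pituitary growth hormone gene, had 7.21, 7.64, 6.54 and 6.86 in transgenic and 5.42, 5.34, 5.14 and 5.62 in wild type thymus, a difference of 1.68 ± 0.226 (limma, adjusted p = 0.162). It was read by 1 of its 4 probe sets, since the others were below the filter. The wild type mean of that probe set was 5.38, and it passed the filter only through its transgenic arrays. Klk7, a secreted serine protease of the skin, stood at 1.81 ± 0.256 with 6.95, 7.98, 6.85 and 6.87 against 5.12, 5.61, 5.43 and 5.24. Transgenic mouse 2 was far above the other transgenic mice, yet all 4 exceeded the wild type. Spata31d1d, a gene of the testis, stood at 1.47 ± 0.155, Pla2g2d, a secreted phospholipase of lymphoid dendritic cells, at 0.51 ± 0.0760, and Pdlim4, a scaffold of the actin skeleton, at 0.93 ± 0.153. With 64 added in place of 16, the differences of Hyal2, Spata31d1d, Gh and Klk7 were 0.84, 0.85, 1.03 and 1.12.

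Several leading genes had probe sets that disagreed in size. Igsf3, an immunoglobulin superfamily membrane protein, stood at 0.63 ± 0.0836 and its 3 probe sets ran from 0.37 to 0.65. Gsn, the actin-severing protein gelsolin, stood at 0.60 ± 0.0957 and its 5 tested probe sets ran from 0.12 to 0.60. Nomo1, part of a membrane complex of the endoplasmic reticulum, had 0.81 ± 0.119 on one probe set and 0.10 on the other. The 2 lower entries were Nabp1, a single-stranded DNA binding protein, at -0.54 ± 0.0844, and D130051D11Rik at -0.74 ± 0.0831. The 6 Nabp1 probe sets ran from -0.54 to 0.07. Probe sets 1438223_at, 1440408_at and 1443965_at, without a symbol, stood at 0.97, 0.92 and 0.96, and 1450618_a_at, whose annotation holds several symbols, at 1.33 ± 0.162.

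**Figure D1:**
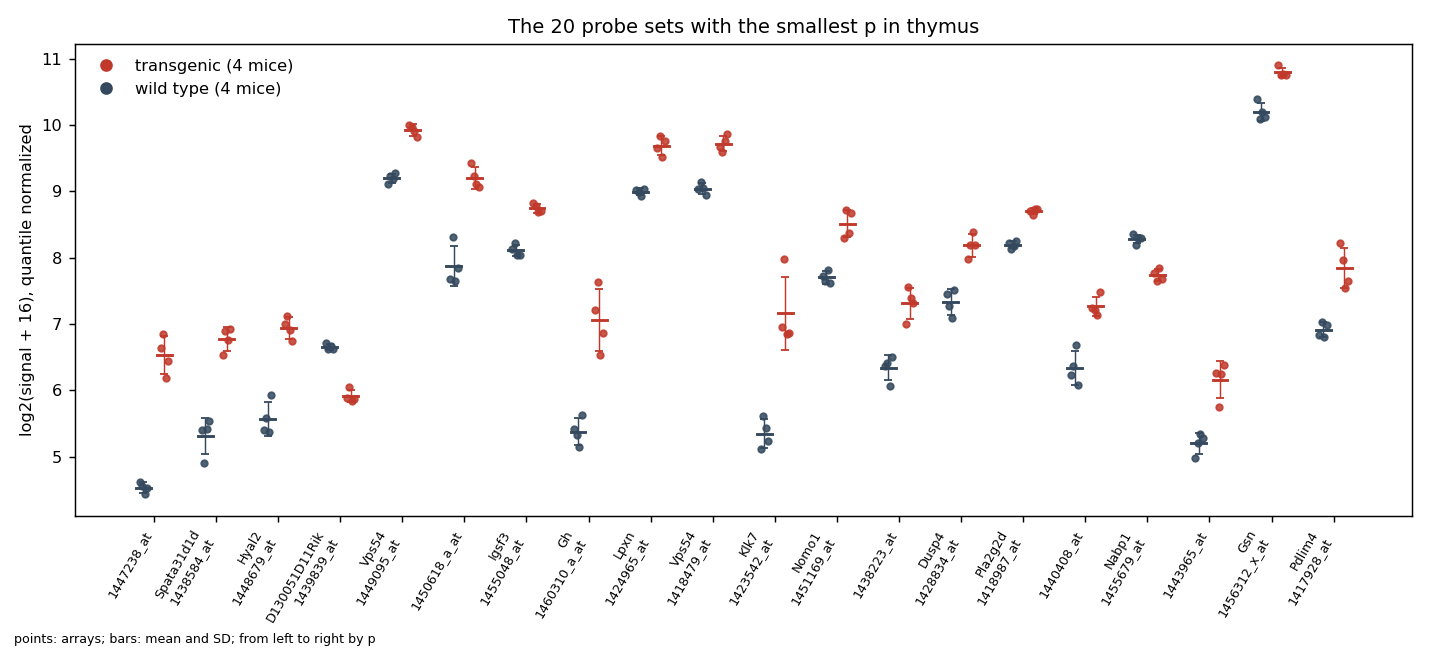
Log2 values in each thymus array for the 20 probe sets with the smallest p, ordered by p from left to right, with the mean and SD of 4 transgenic (red) and 4 wild type (dark) mice. The transgenic arrays lie above the wild type arrays in 18 probe sets and below them in D130051D11Rik and Nabp1; of these only 1447238_at, at the far left, passed the limma threshold.

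B cell genes were higher in transgenic thymus, each by a modest amount. All 16 tested members of the list were higher in transgenic thymus, with a median difference of 0.52 beside 0.00 over all probe sets. Of these, 10 had an unadjusted p under 0.05 in that direction, where 3.97% of all probe sets did. The genotypes lay apart in 7, where 2.54% of all probe sets had every transgenic array above. None of the members passed the adjusted threshold by limma. Another 3 of 19 measured members, Cr2, Pax5 and Vpreb3, were below the filter. In a whole tissue, more cells of a type and more RNA per cell cannot be told apart.

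Blk, a kinase that signals from the B cell receptor, led the list with 8.17, 7.48, 7.40 and 7.46 in transgenic and 6.75, 6.67, 6.47 and 6.72 in wild type mice. Transgenic mouse 1 was highest by a wide margin, and the other transgenic mice still lay above all wild type mice. Its difference was 0.98 ± 0.175, or 1.97-fold (limma, adjusted p = 0.399). Fcmr, the receptor for IgM, had 7.99, 7.17, 6.87 and 7.22 against 6.11, 6.38, 6.27 and 6.72, a difference of 0.94 ± 0.239. Cd79a, a signalling chain of the B cell receptor, had 8.74, 7.73, 7.38 and 8.07 against 7.14, 6.95, 6.95 and 7.30, a difference of 0.90 ± 0.263. Blnk, the linker that passes on the receptor's signal, stood at 0.59 ± 0.178. In all 4 genes transgenic mouse 1 was the highest array and transgenic mouse 3 the lowest transgenic one.

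The mean of the B cell list, centred over the 8 arrays, was 0.65, 0.06, 0.09 and 0.26 in transgenic mice 1 to 4 and -0.30, -0.35, -0.33 and -0.07 in wild type mice 1 to 4. The genotypes did not overlap, and wild type mouse 4 was the nearest to the transgenic arrays. Without transgenic mouse 1 the median was 0.42 and 7 members had an unadjusted p under 0.05. The count was 5 without transgenic mouse 4 and 6 without wild type mouse 1. Without transgenic mice 1 and 2, the mice with the highest Actb ratio, the median was 0.45 and the count 6, while mice 3 and 4 alone gave 0.29 and 1. The summed signal of the list ran from 10710 to 12232 in transgenic and from 9305 to 10691 in wild type arrays.

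Plasma cell genes were led by Slpi, a secreted inhibitor of serine proteases, with the largest difference of any listed gene. It had 9.24, 9.04, 7.54 and 9.84 in transgenic and 6.64, 7.03, 5.89 and 7.11 in wild type thymus. Transgenic mouse 3 was the lowest transgenic array and still exceeded the highest wild type array. The difference was 2.24 ± 0.476, or 4.74-fold (limma, adjusted p = 0.440). Slpi is also made by epithelia and macrophages, so it does not stand for plasma cells alone.

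The antibody genes of that list were less even. Igha, the IgA heavy chain, had 12.92, 12.26, 12.00 and 12.56 in transgenic and 11.02, 12.71, 11.16 and 10.93 in wild type thymus. Wild type mouse 2 stood among the transgenic arrays, and the difference was 0.98 ± 0.396. Related heavy chains can bind such a probe set, so the isotype is uncertain. Jchain, which links IgA and IgM into polymers, stood at 0.60 ± 0.227, and Sec11c, a subunit of the signal peptidase, at 0.26 ± 0.107. Of 18 tested plasma cell genes 6 were higher at an unadjusted p under 0.05, beside 3.97% of all probe sets, and none lower, with a median of 0.20. That count was 1 when transgenic mouse 4 or wild type mouse 1 was left out, and 2 when transgenic mouse 1 or wild type mice 3 or 4 were, each alone. Another 3 of the 18 had negative differences, the lowest at -0.20.

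Germinal centre and proliferation genes had medians near 0 in thymus. Of 12 tested germinal centre genes none had an unadjusted p under 0.05 in either direction, where 7.26% of all probe sets did. So short a list can give none at that share. The median was -0.03, but 0.07 on the values as deposited. Without wild type mouse 4, 2 were higher, and without transgenic mouse 3, 1 was. Their medians in spleen, mesenteric and peripheral lymph node of the same mice were 0.65, 0.33 and 0.52. Of 29 cell cycle genes none had an unadjusted p under 0.05, beside the same 7.26%, and 1 was higher without transgenic mouse 2. Their median was 0.02 in thymus beside -0.40, 0.44 and 0.80 in those tissues. Bub1b, a kinase of the spindle checkpoint, stood at -0.24 ± 0.118 in thymus and its effect there minus that elsewhere was -0.67 (limma, adjusted p = 0.397). For lists, the difference between tissues was not tested.

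**Figure D2:**
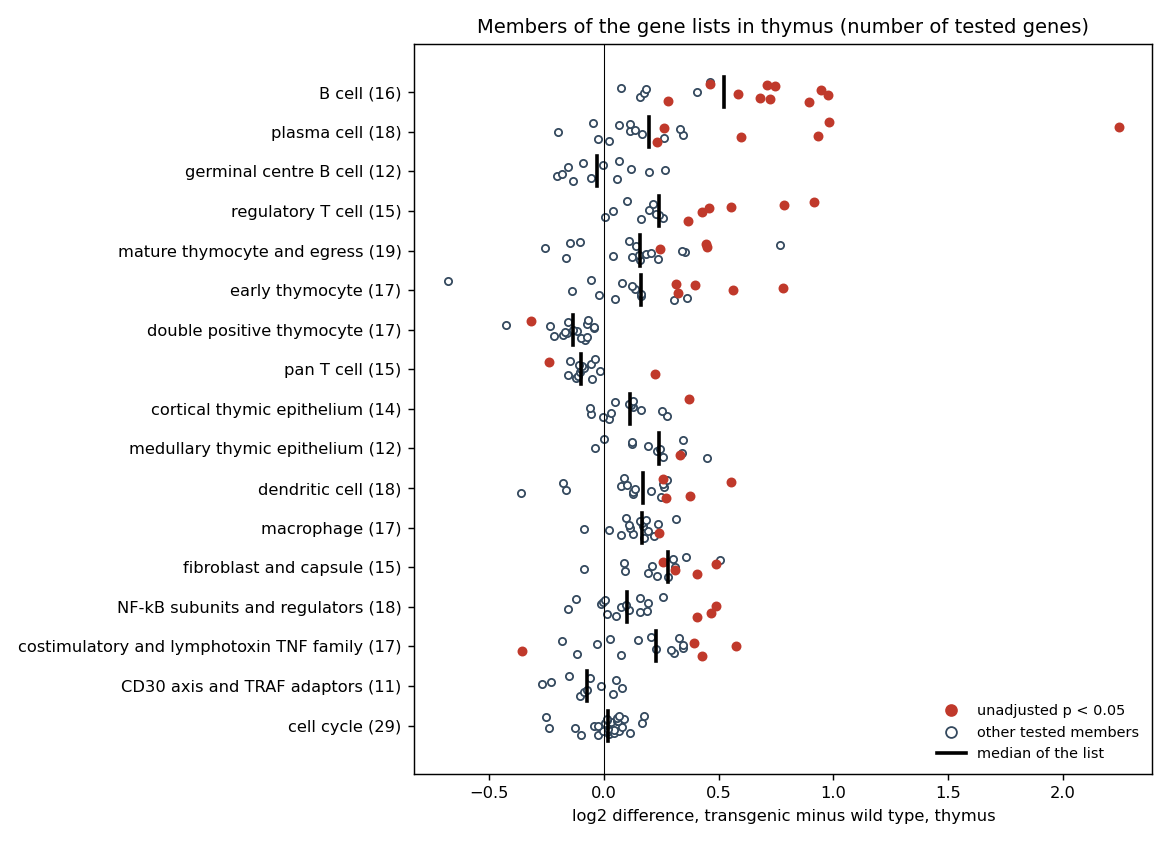
Log2 difference, transgenic minus wild type, for each tested member of 17 gene lists in thymus (1 probe set per gene; the number of tested genes stands in brackets), with the median of the list as a black bar and members with an unadjusted p under 0.05 filled in red. All 16 B cell members lie to the right of 0 and all 17 double positive thymocyte members to the left; the median is 0.52 for the former and -0.13 for the latter.

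In the list of NF-kB subunits and regulators, 3 of 18 tested genes were higher at an unadjusted p under 0.05, beside 3.97% of all probe sets, and none lower. The median was 0.10, and 4 members were negative. Relb, the transcription factor of the alternative branch, had 7.60, 7.54, 7.77 and 7.97 in transgenic and 7.21, 7.29, 7.07 and 7.42 in wild type thymus. Its difference was 0.47 ± 0.124 (limma, adjusted p = 0.573), and the genotypes did not overlap. Nfkb2, which encodes its partner p100/p52, had 7.58, 7.98, 7.94 and 7.66 against 7.21, 7.60, 7.33 and 7.41, a difference of 0.40 ± 0.131 with transgenic mouse 1 just below wild type mouse 2. Bcl3, an atypical inhibitor that binds p50 and p52 in the nucleus, had 7.09, 6.40, 6.67 and 6.87 against 6.17, 6.18, 6.36 and 6.36, a difference of 0.49 ± 0.149. Birc3, a ubiquitin ligase of TRAF complexes, stood at 0.19 ± 0.0935.

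Of 17 tested costimulatory and lymphotoxin genes, 3 were higher and 1 lower at an unadjusted p under 0.05, beside 3.97% and 3.29% of all probe sets. The median was 0.22, and without transgenic mouse 3 it was 0.34 and the count of higher genes 5. Ltb, which forms the membrane lymphotoxin that engages stromal cells, had 11.41, 10.83, 11.04 and 10.86 in transgenic and 10.38, 10.57, 10.43 and 10.47 in wild type thymus. All transgenic arrays lay above the wild type arrays, and the difference was 0.57 ± 0.136, or 1.49-fold (limma, adjusted p = 0.515). Tnfrsf1b, the receptor TNFR2, stood at 0.39 ± 0.0943 with genotypes apart. Tnfrsf4, the costimulatory receptor OX40, stood at 0.43 ± 0.115 with an overlap at 1 transgenic array. Cd27, a costimulatory receptor of T cells, was the lower one, with 9.52 and 9.48 in transgenic mice 1 and 2, all 4 transgenic arrays below the wild type range of 10.03 to 10.20, and a difference of -0.36 ± 0.142. Its 2 lowest arrays were the transgenic mice with the highest Actb ratio, and the part of RNA quality in this was not tested.

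The promoters of Nfkb2, Bcl3 and Ltb are shown because these genes stood higher here and are textbook targets of NF-kB. They were picked once their values were known, and the part of NF-kB in their differences was not tested. Each sequence is the 250 bases before the annotated start, 5′ to 3′ on the gene's strand, from RefSeq (GRCm38.p6, the build of that table). Capitals mark matches to GGGNNNNNCC on either strand, a loose form of the NF-kB site, where matches may overlap.
Nfkb2 (chr19:46304487-46304736, plus strand, the first of 3 listed starts): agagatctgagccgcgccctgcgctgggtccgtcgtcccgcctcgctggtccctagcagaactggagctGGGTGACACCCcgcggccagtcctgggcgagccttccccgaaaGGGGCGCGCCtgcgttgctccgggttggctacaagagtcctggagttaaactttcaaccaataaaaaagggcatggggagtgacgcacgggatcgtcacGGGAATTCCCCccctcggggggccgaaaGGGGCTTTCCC
Bcl3 (chr7:19822756-19823005, minus strand): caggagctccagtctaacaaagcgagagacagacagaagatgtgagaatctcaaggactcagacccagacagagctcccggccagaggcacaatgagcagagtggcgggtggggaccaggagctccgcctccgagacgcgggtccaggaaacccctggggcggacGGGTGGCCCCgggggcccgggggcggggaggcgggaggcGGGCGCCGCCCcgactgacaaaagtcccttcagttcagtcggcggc
Ltb (chr17:35194257-35194506, plus strand): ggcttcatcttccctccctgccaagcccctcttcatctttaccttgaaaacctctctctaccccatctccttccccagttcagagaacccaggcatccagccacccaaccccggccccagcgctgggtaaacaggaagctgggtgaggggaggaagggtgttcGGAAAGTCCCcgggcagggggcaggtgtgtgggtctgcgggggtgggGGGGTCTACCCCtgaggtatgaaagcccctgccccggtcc

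The windows held 7, 3 and 4 matches in that order. A match is a string of letters and not a binding site, and 45.8% of 32851 windows of this length in the table hold at least 1. The table holds no entry for Relb.

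Every one of the 17 tested double positive genes had a negative difference, with a median of -0.13, or -0.22 after scaling to a common trimmed mean. Of them 1 had an unadjusted p under 0.05, where 3.29% of all probe sets were lower. Plxnd1, a semaphorin receptor of cortical thymocytes, was that gene, with 9.91, 10.15, 9.99 and 9.87 in transgenic and 10.18, 10.50, 10.24 and 10.27 in wild type mice, a difference of -0.32 ± 0.105. Arpp21, a phosphoprotein that marks this stage, stood at -0.17 ± 0.0832, and Cd8b1, the CD8 beta chain, at -0.16 ± 0.0919, or -0.10 without transgenic mouse 1. In 4 of the 17 genes every transgenic array lay below every wild type array, beside 2.07% of all probe sets. Of all 43 tested probe sets of these genes, 9 were lower at an unadjusted p under 0.05, beside 3.29% of all, and 0 higher. Probe sets of 1 gene are not separate evidence. The centred mean of the list was -0.17, -0.07, -0.03 and -0.04 in transgenic mice 1 to 4 and between 0.06 and 0.09 in wild type mice. Transgenic mouse 1 was lowest, the array with the highest Actb ratio and the highest B cell mean. Without transgenic mice 1 and 2 the median was -0.07, and on the values as deposited 1 member was positive.

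Genes shared by all T cells leaned the same way, with 14 of 15 negative and a median of -0.10. The exception was Cd2, an adhesion receptor, with 10.03, 10.09, 10.02 and 10.03 in transgenic and 9.88, 9.68, 9.82 and 9.88 in wild type thymus, a difference of 0.22 ± 0.0828. Ubash3a, a phosphatase that damps T cell receptor signalling, was the gene lower at an unadjusted p under 0.05, at -0.24 ± 0.0967. Genes of the response to T cell receptor signals had a median of -0.02 over 22 members, or 0.07 on the values as deposited. Of these Myc, a driver of growth, was lower at -0.31 ± 0.0858 with genotypes apart, and Pdcd1, the inhibitory receptor PD-1, stood at -0.35 ± 0.165, or -0.20 without transgenic mouse 4.

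Mature thymocyte genes had a median of 0.16, with 3 of 19 higher at an unadjusted p under 0.05 (7 without wild type mouse 4), beside 3.97% of all probe sets. Another 4 of the 19 were negative, the lowest at -0.26. Runx3, the transcription factor of the CD8 lineage, had 7.30, 7.30, 7.48 and 7.32 in transgenic and 6.79, 6.84, 6.89 and 7.11 in wild type mice, a difference of 0.44 ± 0.0998. The genotypes lay apart, with wild type mouse 4 the nearest to the transgenic arrays. Itgb7, the integrin beta chain of gut homing, stood at 0.45 ± 0.153, and Gimap6, a GTPase of lymphocyte survival, at 0.25 ± 0.0895, while its second probe set stood at -0.23. Early thymocyte genes also had a median of 0.16 (0.25 without transgenic mouse 2), with 5 of 17 higher at an unadjusted p under 0.05, beside the same 3.97%. Among them were Hhex (0.31 ± 0.115) and Lmo2 (0.40 ± 0.146, or 0.25 without wild type mouse 3), regulators of progenitors, and Cd44 (0.32 ± 0.125), an adhesion receptor that B cells and memory T cells share. Leaving out 1 array at a time, the count was 1 for transgenic mouse 1, transgenic mouse 4 or wild type mouse 4, 2 for wild type mouse 3 and 3 for wild type mouse 1. In this list 4 of 17 genes were negative, the lowest at -0.68.

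All 15 tested regulatory T cell genes had positive differences, with a median of 0.24, and 6 had an unadjusted p under 0.05, beside 3.97% of all probe sets that were higher. Foxp3, the lineage's transcription factor, had 6.17, 6.09, 5.65 and 6.02 in transgenic and 5.60, 5.75, 5.54 and 5.58 in wild type thymus, a difference of 0.37 ± 0.125. Transgenic mouse 3 fell within the wild type range, and the other 3 lay above it. Capg, an actin capping protein, stood at 0.46 ± 0.111 with genotypes apart. Klrg1, a lectin receptor of differentiated cells, had 6.89, 5.93, 6.00 and 5.78 against 5.17, 5.37, 5.46 and 5.47, a difference of 0.78 ± 0.229. Its wild type mean was 5.37, and it passed the filter only through its transgenic arrays. Il2rb, the beta chain of the interleukin 2 receptor, stood at 0.91 ± 0.354 on one probe set and -0.40 on the other, and the former was 0.58 without wild type mouse 4, which lay far below the rest. The count over the list was 4 to 6 when any 1 array was left out. With 64 added, Foxp3, Klrg1 and Il2rb stood at 0.20, 0.43 and 0.53. Capg and Il2rb are also expressed by other cells of the thymus.

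The stromal groups had positive medians, with 1 negative member in medullary epithelium, 3 in cortical epithelium and 1 in the fibroblast and capsule list. Medullary epithelium had a median of 0.24 over 12 genes. Krt5, a keratin of these cells, stood at 0.33 ± 0.139, and Aire, which drives tissue-restricted self antigens, at 0.45 ± 0.210. Of the 12, 1 was higher at an unadjusted p under 0.05, beside 3.97% of all probe sets. That count ran from 0 to 6 when 1 array was left out. The genotypes overlapped in the centred list mean, with -0.08 in transgenic mouse 2 and 0.16 in wild type mouse 4. Cortical epithelium had a median of 0.11 over 14 genes (0.05 without wild type mouse 4), and Kitl, the growth factor for early thymocytes, was the 1 member higher at an unadjusted p under 0.05 (2 without transgenic mouse 2), where 3.97% of all probe sets were, at 0.37 ± 0.0945 with genotypes apart. Fibroblast and capsule genes had a median of 0.28 over 15, with Col3a1, a fibrillar collagen, at 0.40 ± 0.124 and Dpt, a matrix protein, at 0.49 ± 0.171. Their count higher at an unadjusted p under 0.05 was 4, beside 3.97% of all probe sets, and 2 when mouse 1 or 4 of the transgenic or 2 or 4 of the wild type arrays was left out.

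Antigen presentation and interferon genes had medians of similar size. Dendritic cell genes had a median of 0.17 over 18, with Zbtb46, their lineage factor, at 0.37 ± 0.116. Of the 18, 3 were negative, the lowest at -0.36, and 4 were higher at an unadjusted p under 0.05, beside 3.97% of all probe sets. The latter count ran from 1 to 6 with 1 array left out. The centred list mean of transgenic mouse 2, -0.22, lay below the wild type range of -0.11 to -0.05. Macrophage genes had 0.17 over 17, with C1qb, a chain of complement C1q, at 0.24 ± 0.0970 and 3 probe sets from -0.12 to 0.33. Of the 17, 1 was higher at an unadjusted p under 0.05, beside the same 3.97%, and 0 to 5 were with 1 array left out. MHC class II genes had 0.18 over 9, all positive, with H2-DMa, which loads peptides, at 0.44 ± 0.124. Interferon response genes had 0.22 over 22, with Irf1 at 0.34 ± 0.106, Gbp3 at 0.58 ± 0.213 and Oas1a at 0.51 ± 0.202, and 3 members higher at an unadjusted p under 0.05, beside 3.97% of all probe sets. That last count was 9 without transgenic mouse 2 and 1 without transgenic or wild type mouse 1. Glycolysis genes had 0.10 over 15, led by the mutase Pgam1 at 0.36 ± 0.113.

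Fat and muscle varied by array more than by genotype. The centred adipocyte mean was -0.36, -0.41, 1.05 and 0.57 in transgenic mice 1 to 4 and -0.35, -0.30, 0.42 and -0.62 in wild type mice 1 to 4. Adipoq, the hormone adiponectin, had 9.12, 9.39, 10.26 and 9.82 against 9.29, 8.53, 9.60 and 8.39, with overlap, and Retn, the hormone resistin, stood at 1.13 ± 0.465, or 0.68 without wild type mouse 4. The summed adipocyte signal ran from 6001 to 13392 in transgenic and from 5244 to 9399 in wild type arrays, and Lep was at 0 on all of them. The skeletal and cardiac muscle mean reached 1.40 in wild type mouse 2 and stayed between -0.67 and 0.07 in the rest. The part of neighbouring tissue in the differences above was not tested.

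**Figure D3:**
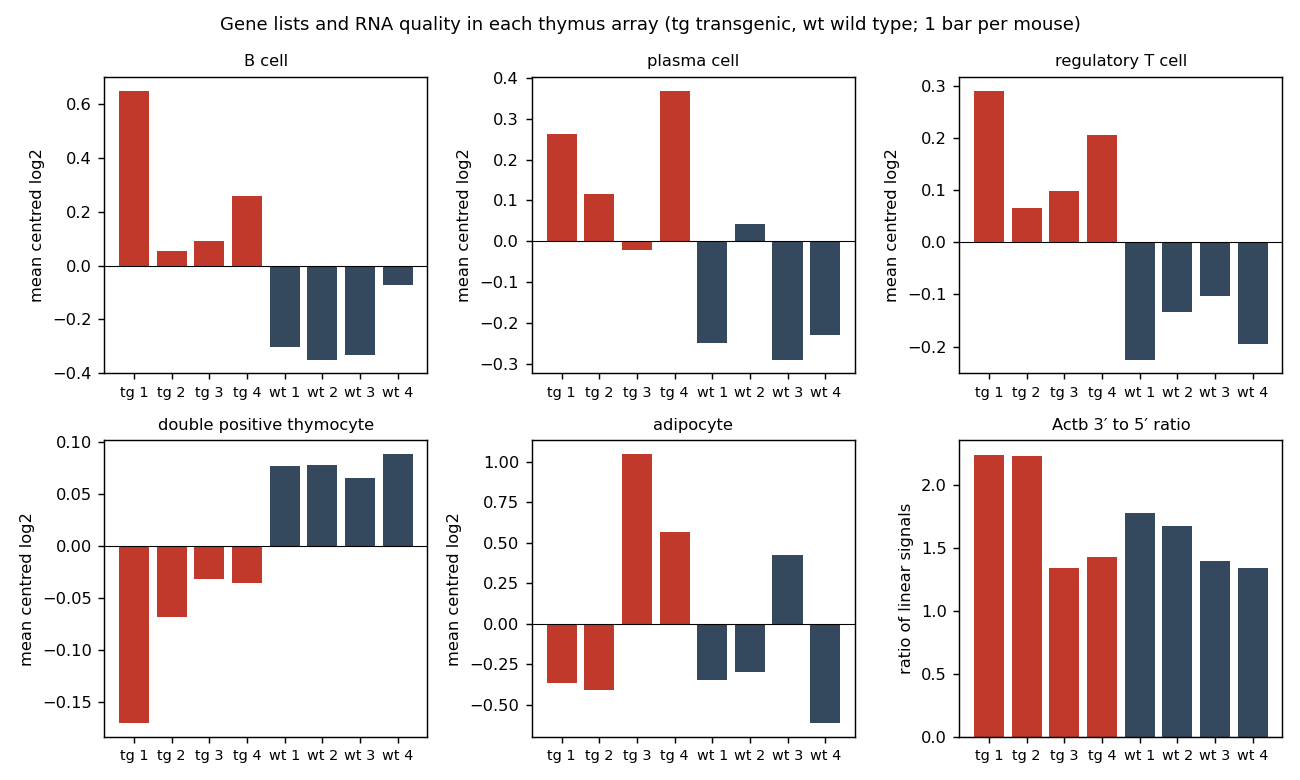
Mean log2 value of 5 gene lists in each thymus array, centred over the 8 arrays, and the 3′ to 5′ ratio of Actb on a linear scale, with transgenic mice (tg) in red and wild type mice (wt) dark. B cell, regulatory T cell and double positive means separate the genotypes, while adipocyte means are highest in transgenic mouse 3 (1.05) and the Actb ratio in transgenic mice 1 and 2 (2.25 and 2.23).

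A run of 3 neighbouring genes on chromosome 11 was higher together in transgenic thymus: Vps54, Ugp2 and Mdh1, which follow each other in gene order. It was chosen after values were seen, from a search for neighbours that each had a limma unadjusted p under 0.001. Neighbours were genes at most 10 apart in gene order. Vps54 and Ugp2 met that rule, so their p chose them, and 2 Vps54 probe sets stood among the leading 20. Mdh1, the next gene, was taken in with them. Pdlim4 and Acsl6, also on chromosome 11, met the rule as well. Vps54 encodes a subunit of the tethering complex that returns vesicles to the Golgi. Ugp2 makes UDP-glucose, and Mdh1 is the cytosolic malate dehydrogenase. All 14 tested probe sets of the 3 genes had positive differences, from 0.20 to 1.08 with a median of 0.50. Of these, 13 had an unadjusted p under 0.05, beside 3.97% of all probe sets that were higher. In 11 the genotypes lay apart, beside 2.54% of all probe sets with every transgenic array above. None of the 14 passed the adjusted threshold by limma. Probe sets of 1 gene read the same transcripts and are not separate evidence.

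Vps54 was read by 5 probe sets with differences of 0.41 to 0.73. Probe set 1449095_at had 10.01, 9.98, 9.90 and 9.82 in transgenic and 9.11, 9.22, 9.19 and 9.27 in wild type thymus, a difference of 0.73 ± 0.0844 (limma, adjusted p = 0.0873). The genotypes lay apart, with little spread within either. Ugp2 was read by 5 probe sets at 0.36 to 1.08. Its probe set 1434485_a_at had 9.03, 8.83, 9.43 and 9.25 against 8.32, 8.42, 8.43 and 8.36, a difference of 0.75 ± 0.132. Mdh1 had the smallest differences, 0.20 to 0.43 over 4 tested probe sets. Its probe set 1448172_at had 11.09, 11.44, 11.33 and 11.43 against 10.89, 10.92, 10.87 and 10.90, with a difference of 0.43 ± 0.0989. The genotypes lay apart in the probe sets just given for each of the 3 genes.

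The flanking genes had medians near 0. Of 9 tested genes before Vps54, with 27 probe sets, none was higher at an unadjusted p under 0.05, beside 3.97% of all probe sets. Of the 27, 1 was lower, beside 3.29% of all, and their median was -0.04. Of 6 tested genes after Mdh1, with 14 probe sets, none differed at an unadjusted p under 0.05, where 7.26% of all probe sets did. The median of the 14 was 0.05. The 3 genes stood as high in the other tissues of the same mice, with medians of 0.60 in spleen, 0.51 in mesenteric and 0.59 in peripheral lymph node. In a limma fit on each mouse's mean over those 3 tissues, added after these values were seen, 14 probe sets (0.0518%) passed as higher and 2 (0.0074%) as lower. Of the 16, 6 belonged to Vps54, Ugp2 or Mdh1, among them Ugp2 1434485_a_at at an adjusted p of 0.0168 and Mdh1 1448172_at at 0.0205.

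The promoters of the 3 genes are shown because the genes are neighbours and differ together. Capitals mark CCAAT or GGGCGG, the core of a GC box, on either strand, in the 250 bases before the start from the same RefSeq table (GRCm38.p6).
Vps54 (chr11:21238782-21239031, plus strand): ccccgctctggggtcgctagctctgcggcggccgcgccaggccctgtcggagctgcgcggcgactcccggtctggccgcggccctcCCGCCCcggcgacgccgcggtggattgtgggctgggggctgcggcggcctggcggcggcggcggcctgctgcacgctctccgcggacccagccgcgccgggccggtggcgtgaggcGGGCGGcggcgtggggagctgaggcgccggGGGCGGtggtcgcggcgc
Ugp2 (chr11:21371268-21371517, minus strand, the first of 2 listed starts): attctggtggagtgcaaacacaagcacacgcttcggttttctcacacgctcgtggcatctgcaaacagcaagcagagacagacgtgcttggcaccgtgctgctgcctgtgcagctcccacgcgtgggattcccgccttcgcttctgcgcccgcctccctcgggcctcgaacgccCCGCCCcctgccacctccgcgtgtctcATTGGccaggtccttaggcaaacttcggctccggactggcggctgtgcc
Mdh1 (chr11:21571935-21572184, minus strand): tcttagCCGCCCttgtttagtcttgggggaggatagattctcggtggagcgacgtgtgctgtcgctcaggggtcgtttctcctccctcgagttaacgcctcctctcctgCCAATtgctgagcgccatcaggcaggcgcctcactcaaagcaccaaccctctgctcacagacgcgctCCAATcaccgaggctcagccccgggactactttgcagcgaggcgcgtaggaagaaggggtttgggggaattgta

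The GC box letters occurred 3 times before Vps54, 1 time before Ugp2 and 1 time before Mdh1, and 32.7% of all windows hold them. The CCAAT letters occurred 0, 1 and 2 times, against 33.8% of all windows. The window before Vps54 was 83.2% G or C and that before Mdh1 59.2%. Vps54 is read from the opposite strand to Ugp2 and Mdh1.

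**Figure D4:**
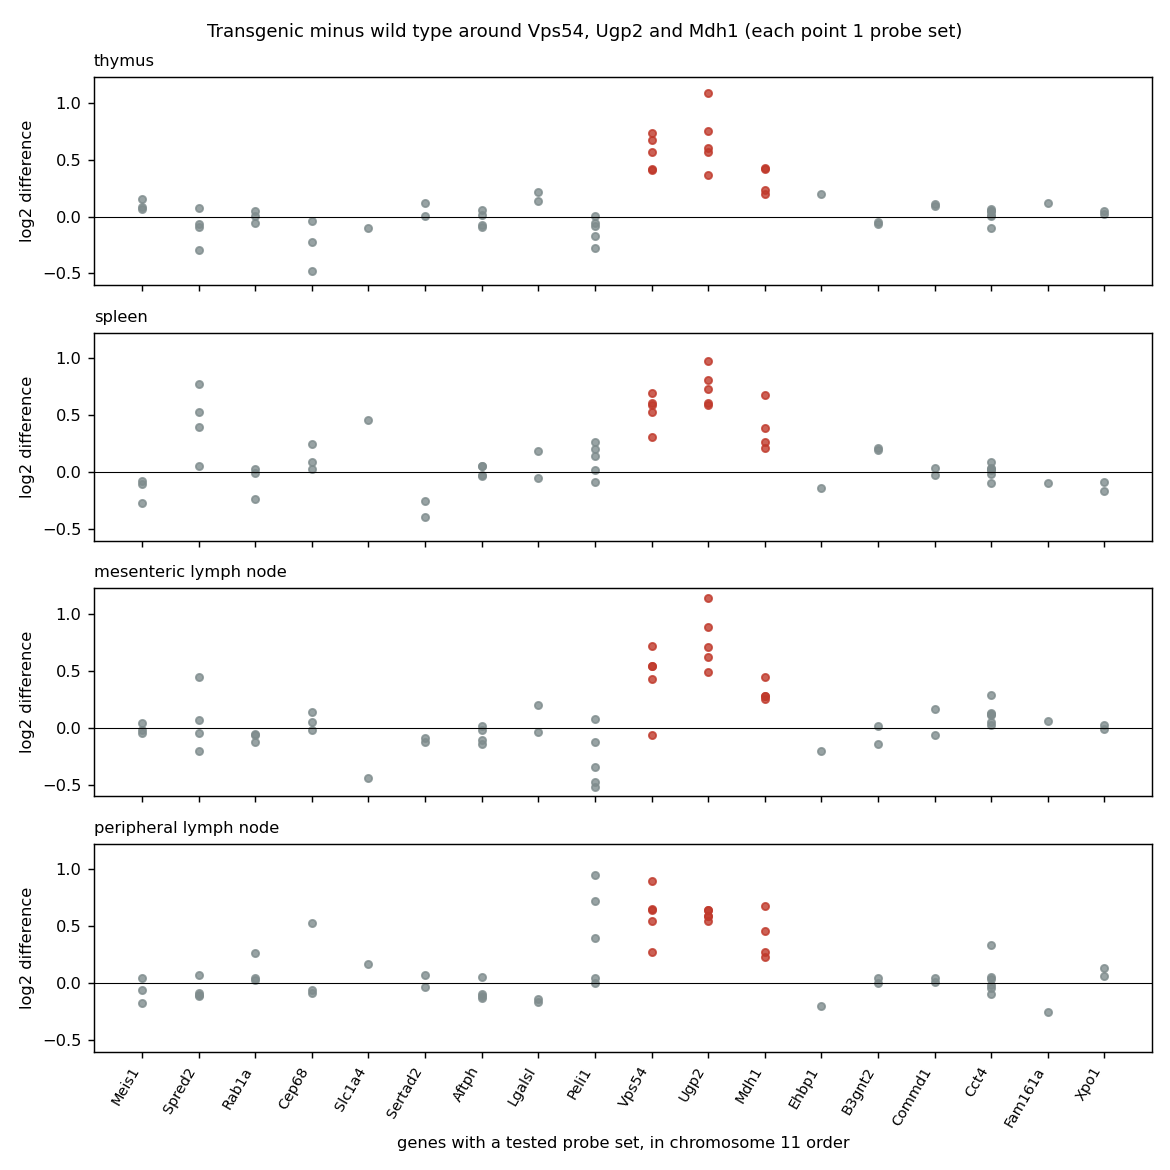
Log2 difference, transgenic minus wild type, of each tested probe set of 18 genes in their order on chromosome 11, in thymus and in the 3 other tissues, with Vps54, Ugp2 and Mdh1 in red and their neighbours in grey. In thymus the red points lie between 0.20 and 1.08 and the grey ones between -0.48 and 0.22, and in the other panels all red points but 1, a Vps54 probe set at -0.07 in mesenteric lymph node, lie above 0.

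Acsl6, another gene of chromosome 11, showed the same likeness across tissues. It encodes a long-chain acyl-CoA synthetase and had 7.28, 6.53, 7.30 and 7.17 in transgenic and 4.66, 5.84, 5.88 and 5.70 in wild type thymus. Its genotypes lay apart, and wild type mouse 1 was lower than the rest. The difference was 1.55 ± 0.296 in thymus (limma, adjusted p = 0.428; 0.94 with 64 added) and 1.74, 1.25 and 1.5 in spleen, mesenteric and peripheral lymph node. Over the mean of those tissues it passed the threshold at 1.5 ± 0.116 (limma, adjusted p = 0.00743). Pdlim4 lies 4 genes from Acsl6 and stood at 0.93 in thymus, but at -0.01 ± 0.0767 over the other tissues.

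The last comparison asked whether the effect in thymus differed from the mean effect in the other 3 tissues of the same mice. No probe set passed the limma threshold, with a smallest adjusted p of 0.189, while 2389 (8.84%) had an unadjusted p under 0.05. The values as deposited, without normalization, called 1. The 5 smallest p belonged to Cenpn, H2-D1, Kctd14, 1450618_a_at and 1447238_at. Cenpn, a centromere protein, stood at -0.05 ± 0.119 in thymus and 0.71 ± 0.102 elsewhere, a difference between tissues of -0.77. H2-D1, a classical MHC class I gene, stood at 0.67 ± 0.133 in thymus and -0.16 ± 0.0886 elsewhere on probe set 1425614_x_at. Its 8 tested probe sets ran from -0.25 to 0.67 in thymus, and such genes share sequence with their relatives, so the gene is uncertain. Kctd14, a protein with a tetramerisation domain, stood at 0.58 ± 0.161 in thymus and -0.19 ± 0.121 elsewhere.

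Values in the other tissues were near 0 for some of the genes described above and positive for others. Over the mean of the other tissues Hyal2 stood at 0.15 ± 0.139, Dusp4 at 0.06 ± 0.0912, Lpxn at 0.10 ± 0.0811 and Blk at 0.04 ± 0.0580. Among the leading 20, 1447238_at stood there at 1.05 ± 0.123 (limma, adjusted p = 0.0334) and Gh at 0.54 ± 0.0647 (0.0349). Klrg1, named from its list and not among the leading 20, stood at 0.71 ± 0.0726 (limma, adjusted p = 0.0196). Slpi stood at 1.04 ± 0.319 elsewhere, mostly from peripheral lymph node, where it was 2.51. Csn2, a milk casein gene, stood at 0.46 ± 0.186 in thymus and 1.19 ± 0.144 elsewhere, where it passed the threshold (limma, adjusted p = 0.0349). Of the 20 leading probe sets, 16 had the same sign elsewhere and 4 passed an adjusted p of 0.05 there by limma. These values are a description, since none of the differences between tissues passed the threshold.

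**Figure D5:**
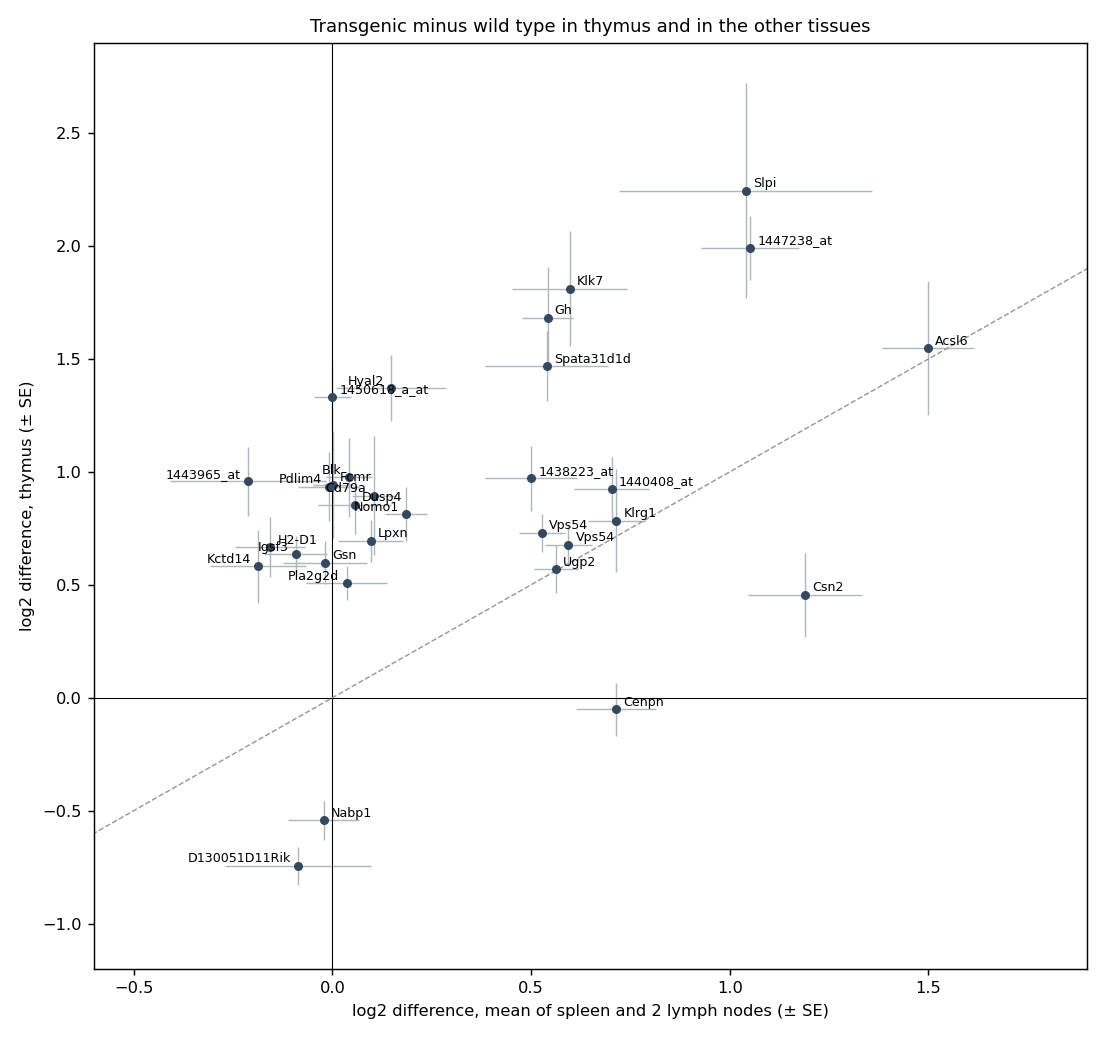
Log2 difference in thymus (vertical) against that of the mean of spleen, mesenteric and peripheral lymph node (horizontal), transgenic minus wild type, with standard errors, for the probe sets named for thymus and for the tissue comparison and for 8 further genes. Vps54, Ugp2 and Acsl6 lie near the dashed line of equal effects, Hyal2 and Blk near 0 on the horizontal axis, and Cenpn near 0 on the vertical axis.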

How the data were processed

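Total RNA of each tissue, 5 µg per array, was biotin-labelled and hybridised to Affymetrix arrays, per the labels' protocols. The authors deposited 1 intensity per probe set on a linear scale for 45101 probe sets. The summary algorithm and its scaling are those of the authors and not given in the sources used here. Values below 0 show only that some signal was subtracted. Here negative intensities were set to 0, 16 was added, log2 was taken and the 8 thymus arrays were quantile normalized. The 64 control probe sets were left out, and those whose mean exceeded the 40th percentile were kept (27022 of 45037). Of the 45037, 34945 had 1 symbol, 932 several and 9160 none in the platform annotation. Symbols were updated through RefSeq (GRCm38.p6), which matched 34741; it served only for names, gene order and promoter sequences.

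Transgenic and wild type were compared with limma 3.58.1 in R 4.3.3, with Benjamini-Hochberg adjustment over all 27022 and a threshold of 0.05. The thymus effect was set against the other tissues by limma on each mouse's thymus value minus its mean over the 3 others. For each listed gene, the probe set of highest thymus mean stands in. Of 623 distinct genes in 36 lists, 560 were measured and 485 tested. Named were Tnfsf8 and Tnfrsf8, the 20 smallest p, up to 4 members of each list, the 5 smallest p against other tissues, and the genes around Vps54 on chromosome 11, picked once their values were known. The members and lists were chosen with earlier results of these data known. Each thymus array is a separate mouse per the labels. Alternatives to each choice are given in the closing section. Leaving out transgenic mice 1 and 2 was chosen after seeing the data, as were, for counts and named probe sets but not for list medians, mice 1 and 2 alone and mice 3 and 4 alone. The thymus fit was tested on simulated data with independent arrays, which lacked the division of mice 1 and 2 from mice 3 and 4. Simulated data without a change also used the spread of thymus, so the tissue comparison was not tested on its own spread. For arrays the number of mice limits the precision.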

Additional observations from a re-analysis of the deposited data

Results flagged for a closer look

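In 16 of 182 groups of 4 thymus arrays (8.79%, where chance gives about 5%), the highest or lowest array stood away from the other 3, by a gap past Dixon's critical share of the group's range. Among transgenic arrays, mouse 1 stood high in Gsn (gap 0.919 of the range), Blk (0.892), Oas1a (0.830) and Vps54 on probe set 1439943_at (0.944), and low in Myc (0.833). It was also the array with the highest 3′ to 5′ ratio of Actb, at 2.25; the part of RNA quality was not tested. Transgenic mouse 2 stood high in Klk7 (0.910) and D130051D11Rik (0.832) and low in Il2rb (0.851), and transgenic mouse 3 stood high in Runx3 (0.893). Among wild type arrays, mouse 1 stood high in Tnfrsf8 (0.879) and low in Acsl6 (0.853), and mouse 2 high in Igha (0.869) and low in H2-D1 (0.8294). Wild type mouse 3 stood low in Lmo2 (0.881) and high in Col3a1 (0.837), and mouse 4 high in Kctd14 (0.875).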

How the results depend on the processing

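Against 1 probe set past the threshold, limma called 5 with 64 added, 4 on the values as deposited, 5 without a filter, 8 with an intensity trend, 0 with the filter at the 60th percentile (1525 at an unadjusted p under 0.05), and 56 in a fit over all 32 arrays that treats the arrays of a mouse as independent. It called 0 with the replicate block (2353), 0 to 2 when 1 array was left out (1272 to 2317), and 0 without transgenic mice 1 and 2 (2343), in mice 1 and 2 alone (2502) and in mice 3 and 4 alone (2319), settings that for these counts were chosen after seeing the data. Under a block dividing mice 1 and 2 from the others it called 1 (2954). The cause was not tested. The replicate block, which pairs same-numbered mice, took 1447238_at to a limma adjusted p of 0.160. Same-numbered mice of the genotypes correlated at 0.14, -0.01, 0.33 and -0.02. The labels give them no pairing beyond the number, though mice 1 and 2 of both genotypes had higher Actb ratios than mice 3 and 4. The thymus effect against the other tissues gave 1 call on the values as deposited and 0 otherwise. Of all probe sets, 2.72% were higher and 0.481% lower at an unadjusted p under 0.05 as deposited, and 4.5% and 2.43% after scaling to a trimmed mean. The median of all differences was 0.09 as deposited.

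Of 88 named probe sets, Tnfsf8, Tnfrsf8 and Cenpn turned in sign. Tnfsf8 ran from -0.21 to 0.12 with 1 array left out, and was 0.17 without transgenic mice 1 and 2 and 0.19 in mice 3 and 4 alone. Tnfrsf8 ran from -0.0423 to 0.11, and was -0.18 in mice 1 and 2 alone. Cenpn ran from -0.15 to 0.0038, and was 0.0452 as deposited, 0.0587 without transgenic mice 1 and 2 and 0.14 in mice 3 and 4 alone. Of 648 alternative list medians, 595 moved by less than 1 SD. That SD is the spread of the list mean among mice of a genotype, pooled over both genotypes. Some list medians turned in sign, among them those of cell cycle and germinal centre genes. The median of tissue-restricted self antigens went from 0.37 to -0.02 without a filter.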
